A study of Mus musculus with 6 samples.

Results

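A set of 10 genes of T cells and intraepithelial lymphocytes was followed through the mouse distal colon: the CD3 chains Cd3e and Cd3g, the coreceptors Cd4, Cd8a and Cd8b1, the regulatory factor Foxp3, the cytotoxic granule genes Gzma, Gzmb and Nkg7, and the integrin gene Itgae. They were chosen by symbol, through the Ensembl identifiers that GENCODE pairs with those symbols, and all 10 of 10 were among the 20533 genes of the deposited table. RNA had been sequenced from C57BL/6 wild-type males, 7 weeks old, in 3 groups of 2 libraries after 7 days of treatment. The groups received 2% dextran sulphate sodium (DSS, a polysaccharide that injures the colonic epithelium and provokes colitis) together with montmorillonite powder, an adsorbent clay, or 2% DSS without the clay, or water. The sources used here give no dose for the clay. They do not state either whether same-group libraries came from different animals, so the p-values reflect the library-to-library spread, which may be technical.

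Conventional T cells recognise antigen through a receptor whose variable chains signal through the invariant CD3 chains, with CD4 or CD8 as coreceptors for class II or class I molecules. In the intestine a second population, the intraepithelial lymphocytes, sits between epithelial cells. Many of these cells carry CD8 as a homodimer of the alpha chain, a gamma-delta receptor, cytotoxic granules and the integrin CD103, whose alpha chain is encoded by Itgae and which binds E-cadherin. Regulatory T cells of the lamina propria, which depend on Foxp3, restrain inflammation in the colon.

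Each value, called a normalised read count here, was a count of reads scaled by its library's size factor. Depth came to 6395768 and 4494666 reads for DSS plus montmorillonite, 21481594 and 15212981 for DSS, and 8936826 and 3741494 for water, so that 1 read was worth between 0.335 and 2.27. The 10 genes were low in all of them, with 0 to 453 reads per library, so counting error is given beside the values that depend on it. Intervals quoted for single libraries are exact 95% intervals and cover counting error only. DSS plus montmorillonite replicate 1 correlated best with the water libraries over all genes (0.959 and 0.947, against 0.902 with its own replicate), while replicate 2 correlated best with the DSS libraries (0.948 and 0.954). The labelled tissue was checked against 8 colonic epithelial genes, which had reads in all 6 libraries.

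Of the 10 genes, 7 had a promoter sequence in the RefSeq table used here (GRCm38.p6), running from 250 bases before to 50 bases after the annotated start. The 3 cytotoxic granule promoters and the first of the Foxp3 entries are printed, because Gzma and Foxp3 moved in opposite directions in the comparison of DSS with water and the other granule genes did not follow Gzma past the test. Capitals mark matches, on either strand, to the letters TGTGGT (a RUNX site), TGANTCA (AP-1) or TGGAAA (NFAT), named for transcription factor families that act in T cells. The sequences, each on the strand of its gene, lie at chr13:113100932-113101231 (minus strand), chr14:56262285-56262584 (minus strand), chr7:43436888-43437187 (plus strand) and chrX:7579426-7579725 (plus strand).
Gzma: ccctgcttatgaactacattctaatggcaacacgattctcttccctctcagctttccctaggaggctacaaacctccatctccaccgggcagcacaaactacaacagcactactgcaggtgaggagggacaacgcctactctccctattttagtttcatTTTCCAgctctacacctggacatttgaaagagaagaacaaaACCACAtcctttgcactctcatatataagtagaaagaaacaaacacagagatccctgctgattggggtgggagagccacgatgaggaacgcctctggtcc
Gzmb: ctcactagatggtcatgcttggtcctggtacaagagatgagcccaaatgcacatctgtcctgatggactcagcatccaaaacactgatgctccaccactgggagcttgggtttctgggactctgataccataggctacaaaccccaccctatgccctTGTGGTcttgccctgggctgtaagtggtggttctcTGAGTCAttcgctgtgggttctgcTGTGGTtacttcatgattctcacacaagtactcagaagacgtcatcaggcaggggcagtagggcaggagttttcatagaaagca
Nkg7: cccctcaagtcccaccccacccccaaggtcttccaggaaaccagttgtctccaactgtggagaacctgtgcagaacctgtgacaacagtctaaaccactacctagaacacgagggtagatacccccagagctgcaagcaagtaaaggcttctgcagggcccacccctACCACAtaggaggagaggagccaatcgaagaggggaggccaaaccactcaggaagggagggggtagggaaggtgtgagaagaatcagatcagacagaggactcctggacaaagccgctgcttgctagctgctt
Foxp3: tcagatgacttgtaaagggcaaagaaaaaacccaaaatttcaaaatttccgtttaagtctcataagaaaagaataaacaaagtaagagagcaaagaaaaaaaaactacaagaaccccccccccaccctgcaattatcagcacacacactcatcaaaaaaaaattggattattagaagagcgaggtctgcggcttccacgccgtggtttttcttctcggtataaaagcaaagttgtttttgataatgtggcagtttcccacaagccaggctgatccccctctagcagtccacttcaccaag

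The Gzmb window held 2 RUNX matches, whose first bases lay 93 and 34 bases before the start, and an AP-1 match 58 bases before it. In Gzma a RUNX match lay 50 bases and an NFAT match 91 bases before the start, and Nkg7 held a RUNX match 83 bases before it. None of the 3 motifs occurred in the printed Foxp3 window, while the second Foxp3 entry, not printed, held an NFAT match 140 bases before its start. Among 32851 promoter windows of the same length, 16.8% held the RUNX letters, 7.81% the AP-1 letters and 21.4% the NFAT letters. Of the first windows of the 7 genes, 3 held RUNX, 1 AP-1 and 3 NFAT. The matches overlapped no other match and describe letters, not occupied sites. RefSeq placed the Gzmb start 74 bases upstream of the GENCODE gene start, and the Foxp3 start 6032 bases downstream of it.

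Set against water, Cd4 and Foxp3 rose in DSS and Gzma fell, while no CD3 or CD8 chain passed the test. These calls came from limma fitted on log2(value + 1) to the 4 libraries compared, with Benjamini-Hochberg adjustment over 20307 genes and a threshold of 0.05. That fit called 3 of the 10 genes, 2 higher and 1 lower, against 15.1% of all genes (7.9% higher and 7.18% lower). The fit of all 6 libraries, which was the main test, called 0 of the 10 (4 at an unadjusted p below 0.05) and 0.0% of all genes, and edgeR on recovered reads of all 6 libraries also called 0 (3 at an unadjusted p below 0.05). When any 1 of the 4 libraries was left out, none of the 10 was called. With 1 library left out of the 4 or of the 6, Cd4 and Foxp3 stayed higher and Gzma lower in DSS than in water. In the rest of the account, "rose" and "fell" refer to the 4-library fit.

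**Figure D1:**
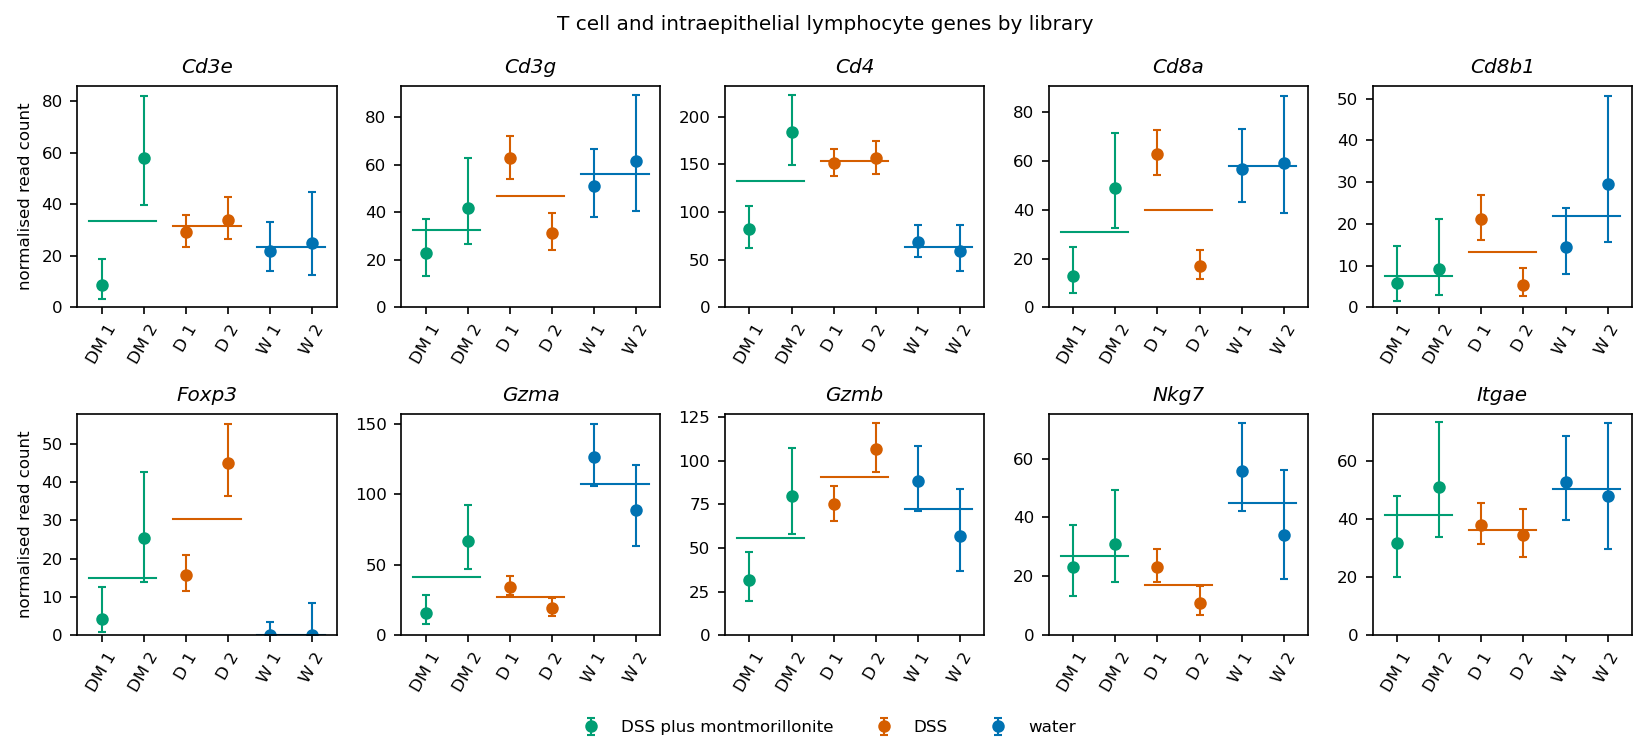
Normalised read count of each of the 10 genes (vertical axes, from 0) in DSS plus montmorillonite (DM), DSS (D) and water (W) libraries 1 and 2, with points for libraries, bars for exact 95% counting intervals and lines for group means. Foxp3 was at 0 in both water libraries, Cd4 was lower in both water libraries than in any other, and Gzma was highest in them.

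Cd3e, the epsilon chain of the CD3 complex (ENSMUSG00000032093.7, GRCm38 chromosome 9, 44998740 to 45009627), had normalised read counts of 8.63 and 58.1 in DSS plus montmorillonite, 29.1 and 34.0 in DSS, and 22.1 and 25.0 in water. The DSS libraries lay just above the water libraries, and the DSS plus montmorillonite libraries were the lowest and the highest of all 6. The difference between DSS and water was within the spread between libraries (log2 0.41 ± 0.42 SE, adjusted p = 0.544 in the 4-library limma fit). Of its 4080 exonic bases, 135 also lie in an antisense transcript, and the sources do not say whether counting used strand.

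Cd3g, the gamma chain (ENSMUSG00000002033.14, chromosome 9, 44969572 to 44980431), had values of 23.0 and 41.8 in DSS plus montmorillonite, 62.6 and 31.2 in DSS, and 50.9 and 61.4 in water. Both DSS plus montmorillonite libraries were below both water libraries, while the DSS libraries lay on either side of them. Neither comparison with water passed limma's test (log2 -0.33 ± 0.45 SE for DSS and -0.83 ± 0.51 SE for DSS plus montmorillonite, adjusted p = 0.650 and 0.668). Although both chains belong to the same complex, their ratio per exonic length was uneven. Cd3g per Cd3e was 3.33 and 0.897 in DSS plus montmorillonite, 2.68 and 1.14 in DSS, and 2.88 and 3.06 in water. The intervals of the DSS libraries, 2.07 to 3.50 in replicate 1 and 0.803 to 1.62 in replicate 2, did not meet.

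Cd4, the coreceptor of helper and regulatory T cells (ENSMUSG00000023274.14, chromosome 6, 124864692 to 124888221), had values of 82.0 and 184 in DSS plus montmorillonite, 152 and 156 in DSS, and 68.1 and 59.1 in water. All 4 libraries from DSS-treated mice lay above both water libraries. Its mean was 154 ± 3.20 in DSS and 63.6 ± 6.38 in water (SD, n = 2 each). It rose 2.40-fold (log2 1.27 ± 0.27 SE, adjusted p = 0.0313 in the 4-library limma fit, 0.167 in the fit of 6). Leaving out 1 of the 4 libraries moved the log2 change between 1.16 and 1.37 and the adjusted p between 0.124 and 0.175. In the mouse CD4 is also made by lymphoid tissue inducer cells, some dendritic cells and some macrophages. In whole tissue, more cells of a type and more RNA per cell cannot be told apart.

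Cd8a, the alpha chain of CD8 (ENSMUSG00000053977.13, chromosome 6, 71373427 to 71379173), had values of 12.9 and 49.1 in DSS plus montmorillonite, 63.0 and 16.8 in DSS, and 56.6 and 59.1 in water. Cd8b1, the beta chain found on conventional CD8 T cells (ENSMUSG00000053044.8, chromosome 6, 71322788 to 71337494), had 5.75 and 9.08 in DSS plus montmorillonite, 21.1 and 5.27 in DSS, and 14.4 and 29.6 in water. Both chains were higher in DSS replicate 1 than in DSS replicate 2 and overlapped water there, whereas both DSS plus montmorillonite libraries lay below both water libraries. The DSS minus water differences did not pass (log2 -0.80 ± 0.64 SE for Cd8a and -0.88 ± 0.77 SE for Cd8b1, limma adjusted p = 0.436 and 0.476). Without DSS replicate 2 their signs turned, to log2 changes of 0.12 for Cd8a and 0.027 for Cd8b1, as did that of Cd3g, to 0.16. With 4 and 5 reads of Cd8b1 in the DSS plus montmorillonite libraries, a smaller difference was not detectable at this depth.

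Foxp3, the factor that specifies regulatory T cells (ENSMUSG00000039521.12, chromosome X, 7573644 to 7595245), had values of 4.31 and 25.4 in DSS plus montmorillonite, 15.7 and 45.1 in DSS, and 0 and 0 in water. These were 3 and 14 reads in DSS plus montmorillonite, 47 and 94 in DSS, and none in water. A count of 0 allowed up to 3 reads, a value of 2.88 in water replicate 1 and 6.82 in water replicate 2, and DSS plus montmorillonite replicate 1, with an interval of 0.890 to 12.6, lay between those limits. With that floor taken over the group, the pooled value of Foxp3 was 13.7 times the water floor in DSS, and 6.74 times it in DSS plus montmorillonite. These multiples leave out the counting error of the reads in the treated groups, so they are not exact lower bounds. For DSS the multiple was 7.78-fold without DSS replicate 2, 22.3-fold without DSS replicate 1 and 4.08-fold without water replicate 1. For DSS plus montmorillonite it was 12.6-fold without replicate 1 and 2.0-fold without water replicate 1, and the 3 reads of replicate 1 alone give none. Foxp3 rose in the 4-library limma fit (adjusted p = 0.0143), DESeq2 on all 6 libraries called it as well (adjusted p = 0.00669, where 11.6% of all genes were called, 6.22% higher and 5.39% lower), and the limma fit of 6 libraries did not (adjusted p = 0.141). Without any 1 of the 4 libraries its adjusted p lay between 0.0557 and 0.0761. Its exons overlap those of Flicr, Ppp1r3f, Gm36995 and Ccdc22, so reads shared with these genes are uncertain.

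Gzma, granzyme A, a serine protease of cytotoxic granules (ENSMUSG00000023132.8, chromosome 13, 113093825 to 113100981), had values of 15.8 and 67.2 in DSS plus montmorillonite, 34.5 and 19.2 in DSS, and 127 and 88.7 in water. Every library from DSS-treated mice lay below both water libraries. The mean was 26.8 ± 10.8 in DSS and 108 ± 26.9 in water (SD, n = 2 each). Gzma fell to 0.25 of its water level in DSS (log2 -2.0 ± 0.43 SE, adjusted p = 0.0332 in the 4-library limma fit and 0.181 in the fit of 6). Leaving out 1 of the 4 libraries gave log2 changes of -2.41 to -1.59 and adjusted p-values of 0.0984 to 0.213.

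Gzmb, granzyme B, the other main granule protease (ENSMUSG00000015437.5, chromosome 14, 56258838 to 56262260), had 31.6 and 79.9 in DSS plus montmorillonite, 75.0 and 107 in DSS, and 88.3 and 56.9 in water. The 3 groups overlapped, and the DSS minus water difference was smaller than its error (log2 0.33 ± 0.37 SE, limma adjusted p = 0.570). Nkg7, a membrane protein of cytotoxic granules (ENSMUSG00000004612.9, chromosome 7, 43437073 to 43438249), had 23.0 and 30.9 in DSS plus montmorillonite, 23.1 and 11.03 in DSS, and 55.7 and 34.1 in water. All libraries from DSS-treated mice were below both water libraries, as for Gzma, but the DSS minus water difference did not pass (log2 -1.39 ± 0.54 SE, limma adjusted p = 0.142).

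Itgae, the alpha chain of CD103 (ENSMUSG00000005947.11, chromosome 11, 73090583 to 73147446), varied least of the 10 genes, taking the ratio of highest to lowest library. Its values were 31.6 and 50.9 in DSS plus montmorillonite, 37.9 and 34.5 in DSS, and 52.8 and 47.8 in water. The DSS libraries were below both water libraries, and 1 of the DSS plus montmorillonite libraries was not. The DSS minus water difference did not pass (log2 -0.46 ± 0.36 SE, limma adjusted p = 0.420). CD103 also marks a class of intestinal dendritic cells.

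In DSS against water the libraries of the groups did not overlap for 6 of the 10 genes, 3 higher (Cd3e, Cd4 and Foxp3) and 3 lower (Gzma, Nkg7 and Itgae). Over all genes 62.4% did not overlap, 33.9% higher and 28.5% lower, so this count was near the background. The median log2 change of the 10 genes was -0.40, beside 0.10 over all genes. The 10 pan-leukocyte genes had a median of 1.90, and all 10 rose, where 7.9% of all genes did.

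DSS plus montmorillonite against water shared its water libraries with that comparison. No gene of the 10 was called by limma in the fit of 6 or of 4 libraries, by edgeR or by DESeq2, and 1 had an unadjusted p below 0.05 in the fit of 6. Limma called 0.0% of all genes in either fit, and DESeq2 1.69% (0.734% higher and 0.955% lower). The groups did not overlap for 7 of the 10 genes, against 40.8% of all genes. Of these, 2 were higher (Cd4 and Foxp3, background 21.5%) and 5 lower (Cd3g, Cd8a, Cd8b1, Gzma and Nkg7, background 19.2%). The median log2 change was -0.59, beside 0.06 over all genes. With 1 of the 4 libraries left out, the log2 change of Foxp3 ran from 2.41 to 4.72.

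The comparison of DSS plus montmorillonite with DSS asks whether adding the clay changed the response. All 10 genes overlapped between the groups, where 39.9% of all genes did not (19.4% higher and 20.6% lower). None of the 10 was called by limma in either fit, by edgeR or by DESeq2 (which gave no adjusted p for Cd8b1 and Foxp3), and 0 had an unadjusted p below 0.05 in the limma fit of 6 libraries. Limma called 0.0% of all genes in either fit and DESeq2 3.14% (2.32% higher and 0.817% lower). The log2 differences ran from -1.23 ± 0.97 SE for Foxp3 to 0.70 ± 0.57 SE for Nkg7, with a median of -0.40 beside -0.07 over all genes. An exact permutation test of a single gene with 2 libraries against 2 cannot give a p below 0.333, so none is reported.

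**Figure D2:**
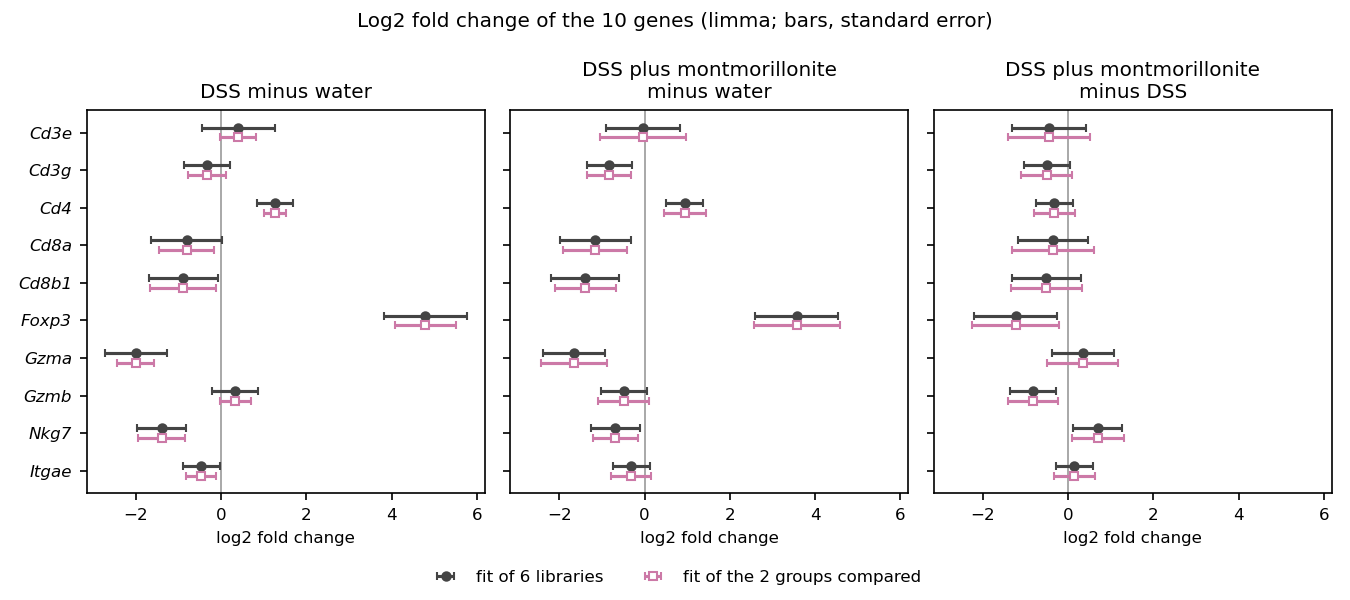
Log2 fold change (horizontal axis) of each of the 10 genes in the 3 comparisons, from limma on all 6 libraries (filled circles) and on the 2 groups compared (open squares), with standard errors as bars. Foxp3 and Gzma lie farthest from 0 in DSS minus water (log2 4.80 and -2.0), and in DSS plus montmorillonite minus DSS the bars of most genes cross 0.

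Levels between genes were compared as normalised read count per kilobase of exons. In DSS plus montmorillonite the highest level per kilobase was that of Gzma (41.3 ± 36.1), then Gzmb (38.9 ± 23.8), Cd4 (32.9 ± 17.8) and Nkg7 (29.5 ± 6.09), which did not differ beyond their spread. Gzmb led in DSS (63.4 ± 15.7), followed by Cd4 (38.2 ± 0.793) and Gzma (26.7 ± 10.8), whose libraries did not overlap, and by Nkg7 (18.7 ± 9.35), which overlapped Gzma. In water Gzma led (107 ± 26.7), ahead of Gzmb (50.5 ± 15.5) and Nkg7 (49.1 ± 16.7), and Cd3g, Cd8a, Cd4 and Cd8b1 followed at 14.8 to 17.2 per kilobase (all SD, n = 2). Gzmb and Nkg7 in water overlapped, as did those last 4 genes, and Itgae (10.97 ± 0.777) and Cd3e (5.77 ± 0.510) came after them. Foxp3 had the lowest mean of the 10 in every group, although in DSS replicate 2 its level per kilobase (9.85) lay above those of Cd3g, Cd3e, Itgae, Cd8a and Cd8b1.

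Ratios within a library do not depend on its size factor. Per exonic length, Cd4 per Cd8a was 5.71 and 3.37 in DSS plus montmorillonite, 2.17 and 8.40 in DSS, and 1.09 and 0.902 in water. All 4 libraries from DSS-treated mice exceeded both water libraries, and the lowest of them (interval 1.83 to 2.59) lay above the intervals of both water libraries (0.758 to 1.56 and 0.503 to 1.62). Gzma per Gzmb was 0.714 and 1.20 in DSS plus montmorillonite, 0.656 and 0.256 in DSS, and 2.05 and 2.23 in water. The values of these 4 libraries were below both water values, but the intervals of the DSS plus montmorillonite libraries (0.313 to 1.54 and 0.754 to 1.90) met that of water replicate 2 (1.31 to 3.84), and the second of them met that of water replicate 1 as well (1.56 to 2.70). Foxp3 per Cd4 was 0.0464 and 0.122 in DSS plus montmorillonite, 0.0914 and 0.254 in DSS, and 0 in both water libraries, where the upper bounds were 0.0470 and 0.134. With those bounds, only DSS replicate 2 (interval 0.200 to 0.320) stood above both water intervals.

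**Figure D3:**
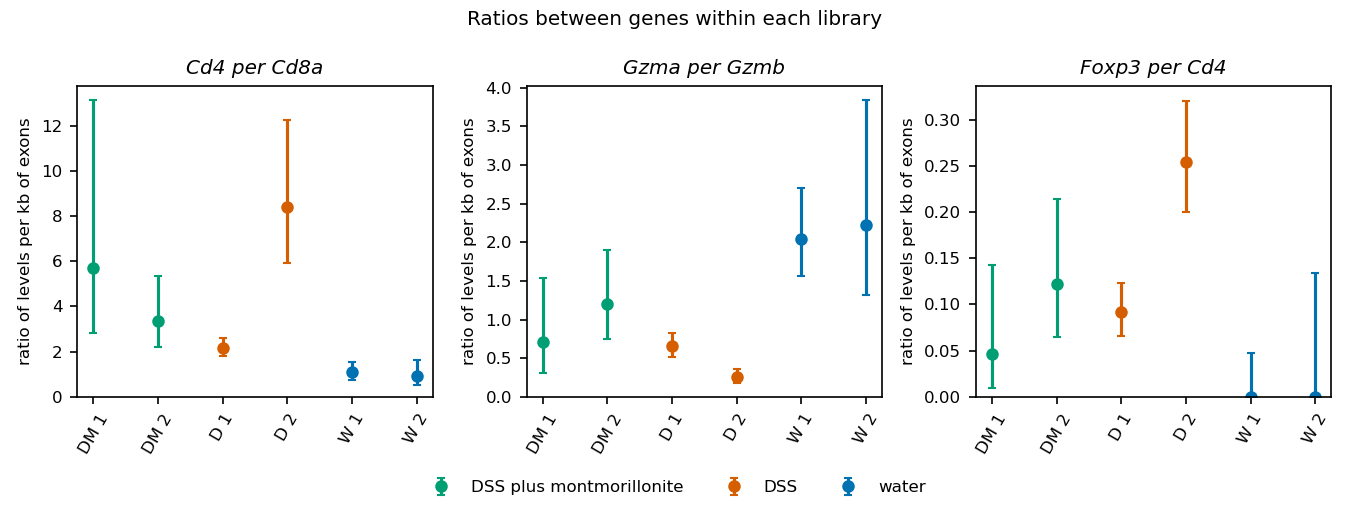
Ratios per kilobase of exons of Cd4 to Cd8a, Gzma to Gzmb and Foxp3 to Cd4 (vertical axes, from 0) within each DSS plus montmorillonite (DM), DSS (D) and water (W) library, with exact 95% counting intervals as bars. Cd4 per Cd8a was lowest and Gzma per Gzmb highest in the water libraries.

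Relative to Ptprc, which encodes the leukocyte antigen CD45, 7 of the 10 genes (Cd3g, Cd8a, Cd8b1, Gzma, Gzmb, Nkg7 and Itgae) were lower in all 4 libraries from DSS-treated mice than in both water libraries. Cd3e, Cd4 and Foxp3 were not. The share of all genes that would be lower in this way was not computed, so the count has no background. Ptprc itself had 384 and 1039 in DSS plus montmorillonite, 2177 and 1246 in DSS, and 405 and 373 in water, and rose 4.23-fold in DSS (adjusted p = 0.0116, 4-library limma fit). A gene that rose less than Ptprc or not at all, such as Gzmb, is therefore lower per Ptprc in DSS without a fall of its own. In DSS plus montmorillonite replicate 1, where Ptprc lay in the water range, the 7 genes themselves were below both water libraries. Gzmb there had 31.6, against 88.3 and 56.9 in water. Gzma per Ptprc, per exonic length, was 0.750 and 1.18 in DSS plus montmorillonite, 0.289 and 0.280 in DSS, and 5.69 and 4.33 in water. Cd8a per Ptprc was 0.170 and 0.238 in DSS plus montmorillonite, 0.146 and 0.0678 in DSS, and 0.704 and 0.798 in water. Cd4 per Ptprc was 0.970 and 0.802 in DSS plus montmorillonite, 0.317 and 0.569 in DSS, and 0.764 and 0.720 in water, so that relative to CD45 the DSS libraries were the lowest for Cd4 as well.

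Of the 9 other CD3 and T cell receptor chains, 1 rose in DSS and none fell, beside the 7.9% and 7.18% of all genes that rose and fell in that fit. It was Trdc, the constant region of the delta chain, with 7.19 and 74.5 in DSS plus montmorillonite, 39.2 and 104 in DSS, and 12.5 and 11.4 in water (5.02-fold, DSS over water, 4-library limma adjusted p = 0.0471). Its DSS plus montmorillonite libraries were the lowest and the second highest of the 6. No gamma constant region of the same receptor passed the test, and their directions differed. Trgc1 had 7.19 and 36.3 in DSS plus montmorillonite, 21.8 and 11.03 in DSS, and 14.4 and 6.82 in water. Its mean was higher in DSS than in water, with overlapping libraries. Trgc2 had 8.63 and 38.2 in DSS plus montmorillonite, 18.8 and 8.15 in DSS, and 28.8 and 25.0 in water, and Trgc4 had 12.9 and 21.8 in DSS plus montmorillonite, 14.7 and 2.40 in DSS, and 20.2 and 20.5 in water. Both were lower in the DSS libraries than in the water libraries without passing the test, and reads may be shared among these related genes. Trac, the alpha constant region, had 30.2 and 85.4 in DSS plus montmorillonite, 100.2 and 82.5 in DSS, and 60.5 and 34.1 in water, and did not pass (adjusted p = 0.148). Trbc1 and Trbc2, the near-identical beta constant regions, did not pass either, and reads may be shared between them.

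Among 22 genes of receptor signalling and costimulation, 2 rose, 1 fell and 19 did not pass, a share near the 15.1% called over all genes. Lcp2, the adaptor SLP-76, had 38.8 and 203 in DSS plus montmorillonite, 225 and 190 in DSS, and 75.8 and 88.7 in water (2.50-fold, adjusted p = 0.0254, 4-library limma fit as for all list genes below). Ptprcap, which associates with CD45, rose 2.77-fold (adjusted p = 0.0386), and Bcl11b, a T lineage factor, fell to 0.422 of its water level (adjusted p = 0.0290). Thy1, the surface antigen with the highest mean of the list, had 254 and 360 in DSS and 146 and 205 in water without passing (adjusted p = 0.112). Prkcq, protein kinase C theta, did not pass either (3.29-fold, adjusted p = 0.0644). The list's median log2 change was 0.97.

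Of 14 companions of Foxp3 in regulatory T cells, 4 rose, none fell and 10 did not pass, beside 7.9% and 7.18% of all genes that rose and fell. Il2ra, the high-affinity interleukin-2 receptor chain CD25, had 17.3 and 78.1 in DSS plus montmorillonite, 48.9 and 68.1 in DSS, and 12.5 and 6.82 in water (5.72-fold, adjusted p = 0.0278). Ctla4, an inhibitory receptor, rose 5.82-fold (adjusted p = 0.0402), Icos, a costimulatory receptor, 4.16-fold (adjusted p = 0.0215), and Entpd1, the ectonucleotidase CD39, 3.70-fold (adjusted p = 0.0176). For all 4 the DSS plus montmorillonite replicate 2 lay in or above the DSS range, and replicate 1 within or close to the water range. The most abundant genes of the list that did not pass were Ikzf2, which encodes Helios (242 to 352 in DSS plus montmorillonite, 164 to 285 in DSS, 250 to 292 in water), and Areg, which encodes amphiregulin (adjusted p = 0.771). Gpr83 ran the other way, at 3.69 and 7.67 in DSS and 24.0 and 27.3 in water, without passing (adjusted p = 0.0646). The list median was 1.81 (log2), beside 1.90 for the pan-leukocyte genes. Il2ra, Ctla4 and Icos are also induced on other activated T cells, and Entpd1 is found on myeloid cells and endothelium.

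The cytotoxic and natural killer list had 22 genes in the table, of which 3 rose, none fell and 19 did not pass, also near that share. The 3 were Serpinb6b (4.96-fold, adjusted p = 0.0267), Cd244a (3.55-fold, adjusted p = 0.0277) and Serpinb9 (2.25-fold, adjusted p = 0.0425). None of them is a granule effector: the serpins inhibit proteases, Serpinb9 among them granzyme B, and Cd244a is a receptor of the SLAM family. Ccl5, a chemokine of cytotoxic cells, had 82.0 and 223 in DSS plus montmorillonite, 82.7 and 55.6 in DSS, and 108 and 75.0 in water (adjusted p = 0.488). Cst7, an inhibitor of granule cathepsins, did not pass (4.25-fold, adjusted p = 0.0537). The median of the list was -0.36 (log2). Gzmc, Gzmd, Gzme, Gzmf and Gzmg were not analysed here.

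Homing, residency and naive T cell genes numbered 23, and 10 rose, none fell and 13 did not pass, where 7.9% of all genes rose and 7.18% fell. The list's median log2 change was 1.25, beside 1.90 for the 10 pan-leukocyte genes. Ccr7, the chemokine receptor of naive lymphocytes and migrating dendritic cells, had 14.4 and 173 in DSS plus montmorillonite, 99.8 and 73.8 in DSS, and 10.6 and 6.82 in water (9.13-fold, adjusted p = 0.0129). It was lowest in water, with DSS plus montmorillonite replicate 1 close to it and replicate 2 the highest of all. S1pr1, the receptor for egress from lymphoid tissue, rose 6.42-fold (adjusted p = 0.0132). Ccr6 rose 13.5-fold (adjusted p = 0.0239), Gpr18 6.98-fold (adjusted p = 0.0250), Itgal 3.37-fold (adjusted p = 0.00999), Itga4 2.95-fold (adjusted p = 0.0239) and Itga1 2.71-fold (adjusted p = 0.0149). Runx3 and Tcf7 rose as well. Many of these genes are shared with B cells, neutrophils or endothelium. Prdm1, which encodes Blimp-1, had one of the highest means and did not pass (adjusted p = 0.0891).

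Helper T cell cytokines and factors came to 14 genes, of which 3 rose, 1 fell and 10 did not pass. Over all genes 7.9% rose and 7.18% fell. Il17a had 1.44 and 18.2 in DSS plus montmorillonite, 5.03 and 13.4 in DSS, and 0 and 0 in water (adjusted p = 0.0359). Its pooled DSS value was 4.19 times the water floor, again without the counting error of the DSS reads. That multiple was 2.48-fold without DSS replicate 2, 6.63-fold without DSS replicate 1 and 1.24-fold without water replicate 1. Il22 was at 0 and 19.99 in DSS plus montmorillonite, 6.37 and 6.71 in DSS, and 0 and 0 in water (adjusted p = 0.0319). Its pooled DSS value was 3.21 times the water floor, on the same terms. Without water replicate 1 no higher level could be stated, because the floor of water replicate 2 alone, 6.82, exceeded the pooled DSS value of 6.51. Bcl6, the follicular helper and germinal centre factor, rose 3.82-fold (adjusted p = 0.0230). Maf and Ahr, factors of several T cell lineages, did not pass (adjusted p = 0.0817 and 0.272). Il2 and Il13 were not analysed here.

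The list of epithelial ligands and regulators of intraepithelial lymphocytes had the most genes that fell among the pathway lists: 9 of 16 fell in DSS, 1 rose and 6 did not pass. Over all genes 7.18% fell and 7.9% rose. Btnl1 and Btnl6, butyrophilin-like proteins that sustain gamma-delta intraepithelial lymphocytes, stood out. Btnl1 had 145 and 10.9 in DSS plus montmorillonite, 13.1 and 6.23 in DSS, and 219 and 243 in water, a fall to 0.0435 of the water level (log2 -4.52 ± 0.44 SE, adjusted p = 0.00655). Btnl6 had 1270 and 531 in DSS plus montmorillonite, 405 and 193 in DSS, and 1243 and 1080 in water (0.242-fold, adjusted p = 0.0198), and Btnl4 fell to 0.307 (adjusted p = 0.0228). In DSS plus montmorillonite replicate 1, Btnl6 and Btnl4 were just above the water range and Btnl1 was below it.

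Il15, a survival cytokine of these lymphocytes, had 197 and 76.3 in DSS plus montmorillonite, 83.8 and 44.1 in DSS, and 213 and 255 in water (0.264-fold, adjusted p = 0.0249). Cdh1, which encodes E-cadherin, the ligand of CD103, fell to 0.537 (adjusted p = 0.0398). Hnf4a and Hnf4g, epithelial transcription factors, fell to 0.211 and 0.224 (adjusted p = 0.0246 and 0.0287), and Ccl28, a mucosal chemokine, to 0.198 (adjusted p = 0.0401). H2-T3, which encodes a thymus leukaemia antigen that binds CD8 alpha homodimers, had 1 read over both DSS plus montmorillonite libraries, 3 over both DSS libraries and 19 over both water libraries. Its pooled ratio of DSS to water was 0.0461 (exact 95% interval 0.00874 to 0.157). That interval covers counting error only, not the spread between libraries, and reads may be shared with related class I genes. Tgfb1, which many cell types make, rose 3.20-fold (adjusted p = 0.0236). The list's median log2 change was -1.67, beside -1.51 for 10 general epithelial genes, of which 9 fell.

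**Figure D4:**
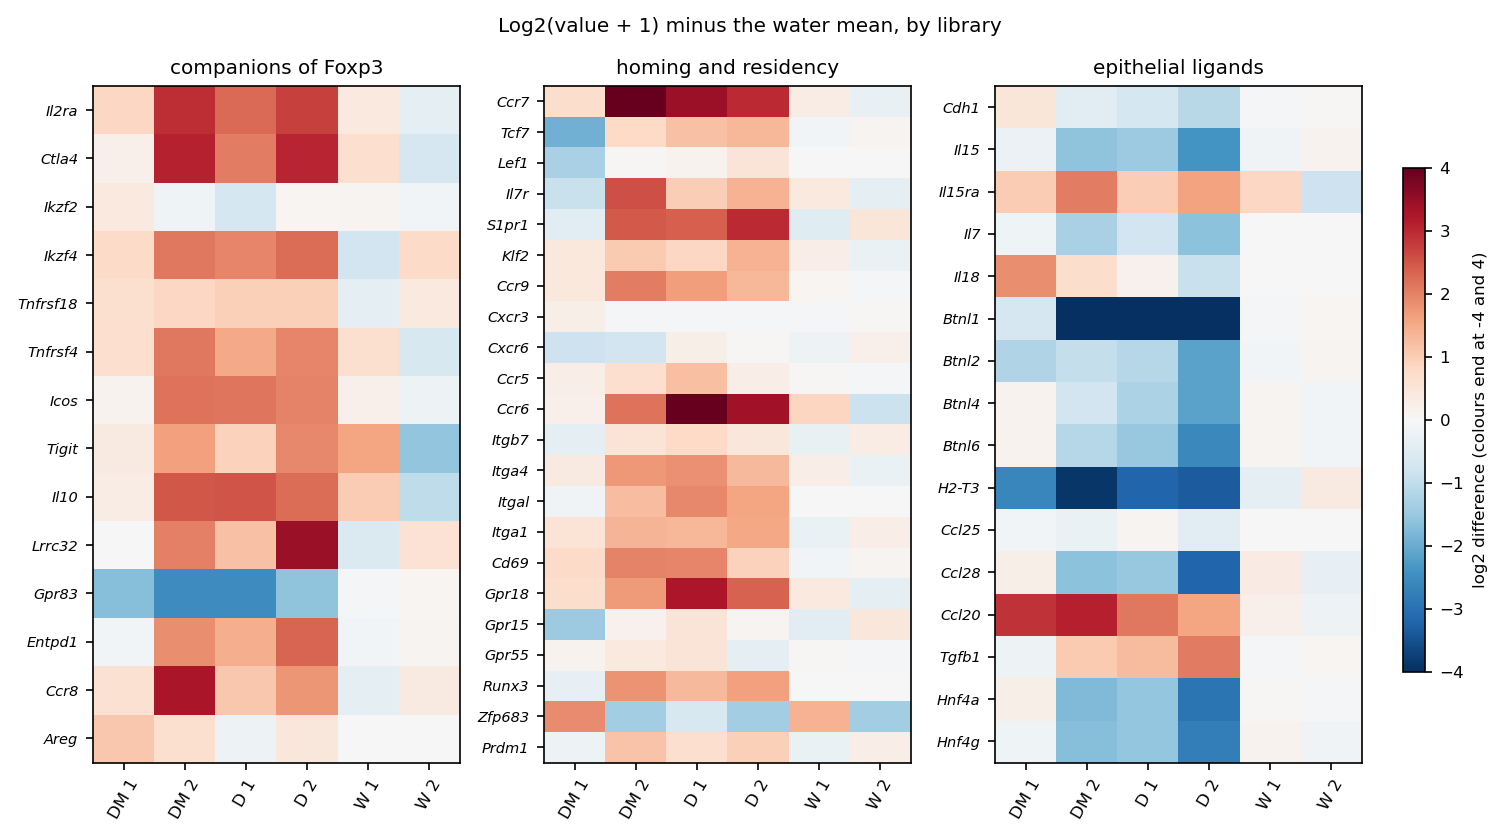
Log2(value + 1) minus the mean of the water libraries (colour) for genes of 3 lists (rows) in DSS plus montmorillonite (DM), DSS (D) and water (W) libraries (columns). Il2ra, Icos and Ccr7 are red and Btnl1 is blue in both DSS libraries and in DSS plus montmorillonite replicate 2, with paler shades in replicate 1.

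No gene of these 7 lists was called in DSS plus montmorillonite against water or against DSS, in the limma fit of 4 or of 6 libraries. DESeq2 on the recovered reads called some, among them 2 genes of the epithelial list, the chemokine Ccl20 (higher than in water, adjusted p = 0.000184) and the cytokine Il18 (higher than in DSS, adjusted p = 0.0433). The medians of log2 change against water were 0.16 for the receptor chains, 0.27 for signalling, 1.09 for the companions of Foxp3, -0.11 for the cytotoxic list, 0.73 for homing, 0.44 for helper genes and -0.60 for the epithelial ligands. Against DSS the medians were -0.81 for the receptor chains, -0.58 for signalling (-0.52 with genes that had no read in a group at their bound), -0.53 for the companions of Foxp3 and for helper genes, 0.0044 for the cytotoxic list, -0.51 for homing and 1.08 for the epithelial ligands. Each of these comparisons shares libraries with the comparison of DSS with water.

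Lists of markers of other cells, some of which can make some of the 10 genes, differed between libraries. For the counts in this and the next paragraph, 7.9% of all genes rose and 7.18% fell in DSS against water. Of 12 genes of monocytes and macrophages, a possible source of Cd4, 8 rose in DSS. Their summed value was 5878 and 14066 in DSS plus montmorillonite, 13280 and 11934 in DSS, and 6220 and 5701 in water. Of 15 B cell and follicle genes 13 rose, with sums of 423 and 6581 in DSS plus montmorillonite, 7880 and 4352 in DSS, and 564 and 757 in water. Dendritic cell genes, a possible source of Cd4, Cd8a and Itgae, showed 1 of 12 that rose (Sirpa), with sums of 2776 and 2847 in DSS plus montmorillonite, 3599 and 3489 in DSS, and 3964 and 4321 in water. The macrophage and B cell sums were high in both DSS libraries and in DSS plus montmorillonite replicate 2, and the dendritic sum, most of which was Cd24a in water, was highest in water. The median log2 change of the dendritic list went the other way, at 0.72. In both DSS libraries 7 of its 12 genes were higher than in both water libraries, and 3 were lower. Over all genes those shares were 33.9% and 28.5%. Siglech, a plasmacytoid marker, was at 0 in DSS plus montmorillonite replicate 1.

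Of 12 mast cell genes, which bear on Gzmb and Itgae, 2 rose (Ms4a2 and Hdc), with sums of 193 and 667 in DSS plus montmorillonite, 594 and 964 in DSS, and 271 and 316 in water. Most of the DSS sums was Kit (213 and 372) and Hdc (223 and 403). The list did not rise as a whole, with a median log2 change of 0.0084 in DSS against water. Among the mast cell protease genes, Cpa3 and Mcpt4 lay at 0 to 20.6 over the 6 libraries. Mcpt1 (20.1 to 49.9), Mcpt2 (14.4 to 56.3) and Cma1 (10.9 to 45.5) lay in the range of several of the 10 genes. Among 10 innate lymphoid genes 1 rose (Il1rl1) and 1 fell, with sums of 1274 and 2952 in DSS plus montmorillonite, 3089 and 7512 in DSS, and 1250 and 1180 in water. Of natural killer markers, Ncr1 was at 0 in DSS plus montmorillonite replicate 2 and in water replicate 2, and never above 5.75, while Klrb1c ran from 0 to 6.82. Klre1 (0 to 7.37) and Klrc1 (0 to 18.2) were low too. Klrd1 (25.9 to 72.7) and Klrk1 (16.3 to 40.9) were higher, in the range of several of the 10 genes. Of 10 neutrophil genes 8 rose, with sums of 129 and 8072 in DSS plus montmorillonite, 3642 and 8445 in DSS, and 25.9 and 43.2 in water. Epithelial genes ran the other way: the 10 general ones summed to 155944 and 85896 in DSS plus montmorillonite, 60736 and 41503 in DSS, and 150456 and 156434 in water, and 5 of 8 colonic ones fell. The part of these cell types in the values of the 10 genes was not tested.

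**Figure D5:**
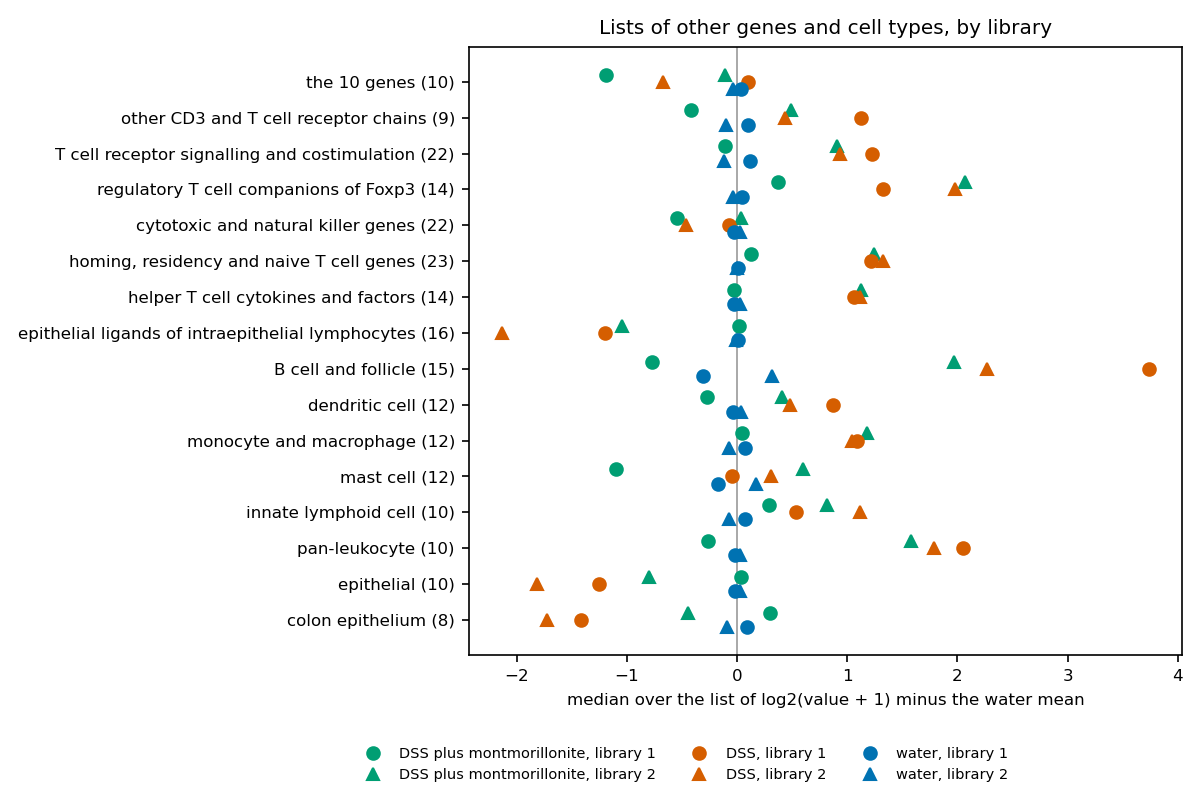
Median over each list of log2(value + 1) minus the water mean (horizontal axis) in each of the 6 libraries, with list sizes in brackets and the neutrophil list, which lies off this scale, not drawn. Pan-leukocyte genes lie at -0.26 and 1.58 in DSS plus montmorillonite and at 2.05 and 1.78 in DSS, and the 10 genes at -1.19 and -0.11 in DSS plus montmorillonite and at 0.10 and -0.68 in DSS.

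Across the 6 libraries, Cd4 and Foxp3 went together (Pearson r = 0.953 on log2(value + 1)), as did Cd3g with Cd8a (r = 0.955) and with Cd8b1 (r = 0.927), and Gzma with Itgae (r = 0.971) and Nkg7 (r = 0.854). Gzma and Foxp3 ran in opposite directions (r = -0.624). Cd3e followed neither set closely, with r = 0.639 for Cd4 and 0.451 for Cd3g, and its highest value among the 10 genes was with Gzmb (r = 0.785). These values describe 6 libraries that share groups and size factors, and carry no p. Of 7803 genes with a mean of at least 20 and a log2 range of at least 1, those most like Cd3e were Zfp354c (r = 0.993), Eepd1 (0.990), Gtf2ird2 (0.984), Ocstamp (0.983), Ighv1-5 (0.978) and Vac14 (0.974). All 6 had their lowest value in DSS plus montmorillonite replicate 1 and their highest in replicate 2, as Cd3e did.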

How the data were processed

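The deposited table gave a normalised signal per gene and library, made by the authors from counts of reads. The submitters' processing notes name the builds mm10 and GRCm38, and aligner, counter and strand setting are not given in the sources used here. Dividing each library's deposited values by their smallest value above 0 gave whole reads for 100% of them, within 0.01 read, and the implied factors equalled DESeq2's median-of-ratios factors. All 6 columns were used, and 20500 identifiers were named in GENCODE M21.

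Groups came from the sample titles. For the main test, limma 3.58.1 (R 4.3.3, with a mean-variance trend) was fitted to log2(value + 1) of the 20307 genes whose mean value reached 1, using all 6 libraries, 3 residual degrees of freedom and a two-sided Benjamini-Hochberg adjusted p below 0.05. Fits of the 4 libraries compared, edgeR 4.0.16 and DESeq2 1.42.0 on recovered reads, a replicate block, other scalings, pseudocounts and filters, and leaving out each library were alternatives. Calls of the 4-library fit are reported because the main fit called no gene. The fold changes of single genes are on the log2(value + 1) scale, which understates those of low genes. The limma fits and the edgeR and DESeq2 fits of all 6 libraries were tested on simulated data. The simulation gave every group the same spread and altered no gene with a mean as low as those of Foxp3 and Cd8b1. It therefore does not show how the fits behave for such genes, or with the unlike DSS plus montmorillonite libraries.

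Named genes were all 10 members, and in each pathway list the 3 with the highest mean, the 2 with the smallest p in DSS against water and at most 8 that passed the 4-library fit, with the genes most like Cd3e. Genes of other cell types, and called genes beyond the 8 of a list, were named after their values were seen. The members and lists were chosen with earlier results of these data known. Some results that the rule would name are not reported here. Lengths are unions of GENCODE exons.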

Additional observations from a re-analysis of the deposited data

How the results depend on the processing

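The count of the 10 genes called in DSS against water was 0 with all 6 libraries and 3 in the limma and edgeR fits of the 4 libraries compared. It was 1 with DESeq2 and 1 with a replicate block (Foxp3 in both). For DSS plus montmorillonite against water and against DSS it was 0 in each of these fits. The replicate numbers were taken as names only: deviations of same-numbered libraries correlated at 0.41 (DSS plus montmorillonite with DSS), 0.16 (DSS plus montmorillonite with water) and 0.20 (DSS with water), with only 2 numbers. The replicate block called 1 of the 10 genes in DSS against water and 0 in the other comparisons. In fits of 4 libraries with 1 left out, 0 genes of all were called without DSS replicate 1 or 2, 288 without water replicate 1 and 317 without water replicate 2. Lone libraries were assumed to vary like the other groups.

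Of the alternative log2 changes of the 10 genes, 577 kept their direction and side of the threshold, 15 gained a call and 38 changed sign, none of these for Cd4, Foxp3 or Gzma in DSS against water; the cause was not tested. The log2 change of Cd3e against water in DSS plus montmorillonite turned to 0.46 (edgeR, 4 libraries), 0.47 (edgeR, all), 0.49 (DESeq2) and 0.041 (pseudocount 5), and against DSS to 0.015, 0.011 and 0.065 with the same 3 count fits. Itgae against DSS turned to -0.10 under scaling by library size, which moved the median of all genes to -0.31 there and to 0.33 in DSS against water; no other direction among the 10 genes changed with scaling. With 1 library left out, DSS against water ran from -0.82 to 0.16 for Cd3g, -1.73 to 0.12 for Cd8a and -1.79 to 0.027 for Cd8b1. DSS plus montmorillonite against water ran from -1.35 to 1.27 for Cd3e (0.048 without water replicate 2), -1.14 to 0.17 for Gzmb and -0.65 to 0.018 for Itgae, and against DSS from -1.75 to 0.86 for Cd3e, -0.90 to 0.25 for Cd4, -1.28 to 0.57 for Cd8a, -1.42 to 0.40 for Cd8b1, -0.67 to 1.35 for Gzma (-0.068 without DSS replicate 2) and -0.19 to 0.48 for Itgae. The fitted log2 change of Foxp3, which depends on the pseudocount, ran from 2.69 to 8.65 in DSS against water. Depth limits Foxp3 and Cd8b1 most.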
